A study of Mus musculus with 16 samples.

Results

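The genes described here are 9 genes known from germ cells and pluripotent cells, Dazl, Ddx4, Mael, Pou5f1, Sox2, Sall4, Zfp42, Dppa4 and Dppa5a, as measured in the developing mouse epididymis. They were taken by name: every probe set annotated to exactly 1 of these symbols was used, which gave 11 of the 45101 probe sets on the array. Dazl and Sall4 had 2 probe sets each and the other genes 1, and 0 probe sets listed with several symbols held any of them. All 9 genes were among the 12239 genes compared, which are those with a probe set at or above the median signal of its own array on at least 3 of the 15 epididymis arrays.

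RNA from whole epididymides of wild-type CD-1 males, an outbred mouse stock, was hybridised to Affymetrix arrays, with 3 arrays at each of gestational days 12, 14, 16 and 18 (gd12, gd14, gd16 and gd18) and postnatal day 2 (pnd2). In the labels these correspond to Theiler stages 20, 22, 24, 26 and 27. The last array carried RNA of a pool of whole wild-type newborns at postnatal day 0.5 (Theiler stage 27), 4 of them male and 4 female, with no strain given. The sources differ on pooling: the design text describes both organs of a single animal per sample, each from its own dam, while the sample labels mark each gd12 and gd14 sample as a pool of 3 and the gd16, gd18 and pnd2 samples as not pooled, so that pooling and stage cannot be told apart between gd14 and gd16. A signal is the array's brightness for a probe set on a linear scale, and it is compared between stages, never between genes. Sums of signals over a list of genes are compared between arrays, and bright probe sets weigh most in them. Calls of presence or absence were not used here, so a low signal is given as a low signal and not as absence.

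The arrays were alike in their scaling, with the same trimmed mean signal on all 16, and the median signal of an array lay between 110.3 and 133.0 on 14 of the 15 epididymis arrays. Replicate 3 of pnd2 stood apart, with a median of 81.24 and a Gapdh signal 63.16 times higher at the 3' than at the 5' end, against 4.333 to 7.18 times on the other 14. Counts of calls that involve pnd2 are therefore given with and without that array. Duct genes were above the array median on the gd12 arrays in part: Emx2, a homeobox gene of the urogenital ridge and Wolffian duct, had signals of 2256, 1375 and 1660, and Cdh16, a cadherin of kidney and duct epithelium, 1637, 165 and 2965. Adgrg2, an adhesion receptor found in epididymal epithelium, had signals of 24.5, 81.2 and 517 at gd12, below the array median on 2 of the 3 arrays, against 10815 to 14557 at pnd2.

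As background, germ cells form outside the gonad, migrate into the genital ridge and in the male become enclosed by Sertoli cells in the cords of the testis. Until then they keep much of the transcription factor network of pluripotent cells, which is switched off as male germ cells enter mitotic arrest, while RNA-binding proteins and the machinery that makes piRNAs, the small RNAs that silence transposons, take over. The epididymis grows from the Wolffian duct beside the gonad and has no germ cells of its own in the fetus. In RNA of a whole organ, fewer cells of a type and less RNA per cell cannot be told apart.

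Each of the 9 genes was above the array median on all 3 gd12 arrays and lower on every gd14 array, although Dazl, Ddx4, Dppa4 and Dppa5a were still at or above the median on all 3 gd14 arrays. Between gd12 and gd14, 8 of the 9 fell in limma's test over all genes (adjusted p under 0.05), by 5.29-fold for Pou5f1 to 25.5-fold for Dppa5a, while 5.74% of all genes were called lower in the same comparison. Mael was 2.58-fold lower and was not called (adjusted p = 0.247). For all 9 the 3 gd14 arrays lay below the 3 gd12 arrays, as they did for 20.6% of all genes. The median log2 change was -3.13 over the 9 genes and 0.03 over all genes. Pou5f1, Zfp42 and Sox2 reached the array median on the 3 gd12 arrays only, so they could enter the comparison only by differing, and the count is a description. It was also 8 of 9 when no filter was used.

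**Figure D1:**
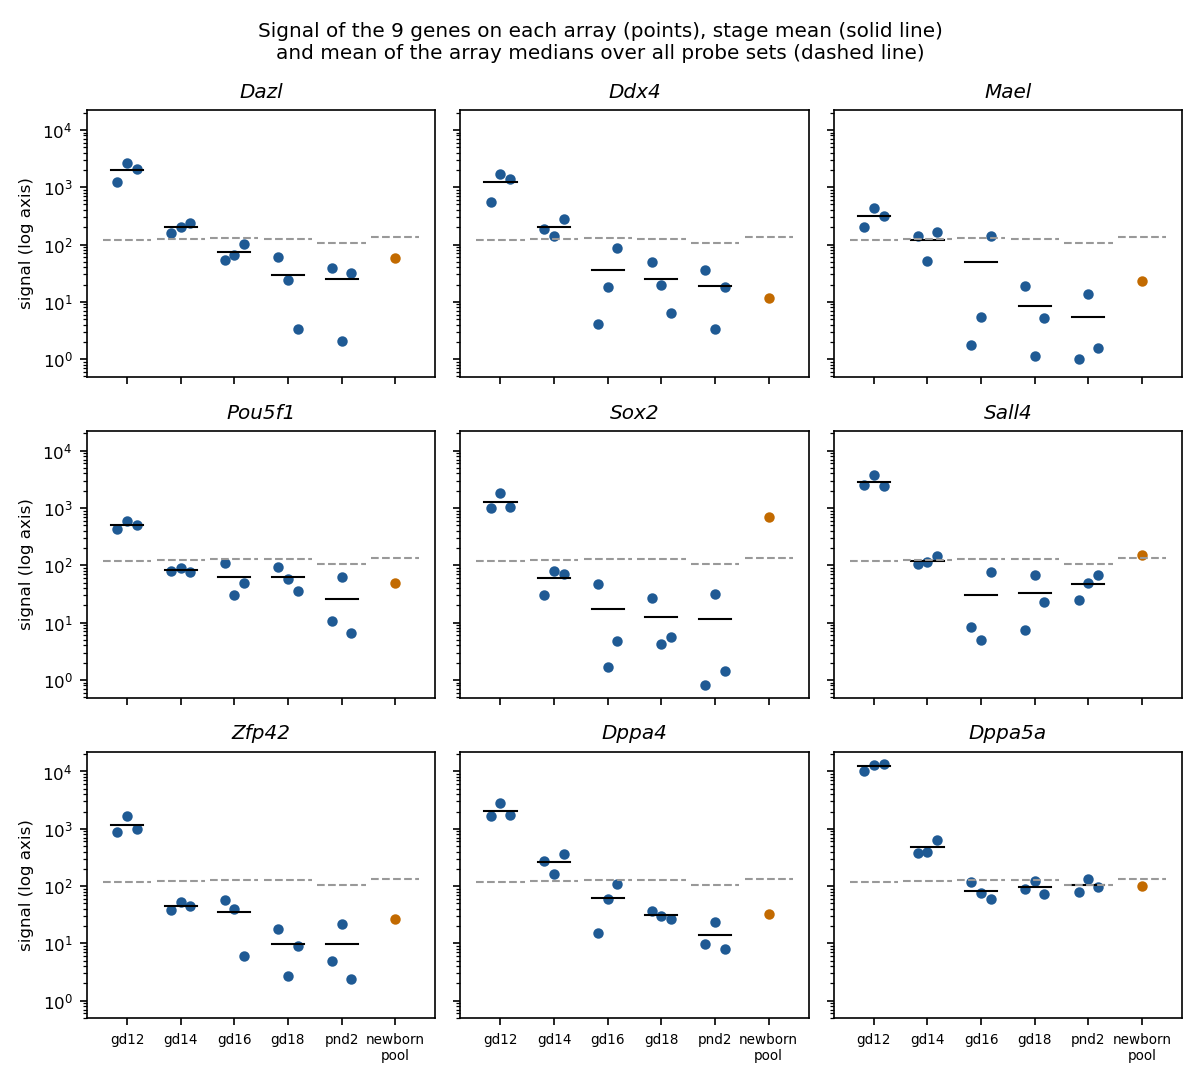
Signal of each gene on each array (log axis), with stage means as solid lines and the mean of the array medians as dashed lines; the orange point is the newborn pool. Each gene is highest on the 3 gd12 arrays, Dppa5a at 10013 to 13524 and Mael at 206 to 428, and Sox2 is the gene whose newborn pool value, 707, lies well above the dashed line.

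Dazl and Ddx4 encode RNA-binding proteins of germ cells, and Mael is needed for piRNA production and transposon silencing. Dazl (probe set 1449502_at) had signals of 1216, 2611 and 2086 on the gd12 arrays, 162, 205 and 239.8 at gd14, 54.0, 65.6 and 102.8 at gd16, 61.7, 24.5 and 3.36 at gd18 and 39.5, 2.11 and 32.2 at pnd2. Its stages did not overlap up to gd16 and overlapped after that. It fell 8.78-fold at gd14 against gd12 (adjusted p = 0.000955, log2 change -3.13 ± 0.51, given as the SE with n = 3 arrays at each stage). Its other probe set, 1419542_at, fell 16.2-fold (-4.02 ± 0.48, adjusted p = 0.00011 with every probe set fitted as its own row).

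Ddx4, the vasa helicase (1427242_at), had signals of 557, 1718 and 1413 at gd12, 186, 141 and 279.5 at gd14, 4.11, 18.0 and 87.5 at gd16, 49.1, 19.4 and 6.5 at gd18 and 35.3, 3.39 and 18.5 at pnd2. All 3 gd14 arrays lay above the array median and all 9 later arrays below it. It fell 5.33-fold at gd14 against gd12 (-2.41 ± 0.62, adjusted p = 0.0182). This call was lost without gd12 replicate 14 (adjusted p = 0.0956) or 15 (0.0682), without gd14 replicate 10 (0.0604) or 11 (0.0795), and with a constant of 1 in place of 16 added before taking logs (0.133).

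Mael (1436837_at) had signals of 206, 428 and 318 at gd12, 139, 51.9 and 167 at gd14, 1.74, 5.45 and 142 at gd16, 19.14, 1.14 and 5.27 at gd18 and 1.02, 13.8 and 1.57 at pnd2. The gd14 arrays spread over 3.21-fold and the gd16 arrays over 81.9-fold, with gd16 replicate 9 as high as the gd14 arrays. The difference between gd14 and gd12 was 2.58-fold (-1.37 ± 0.71) and did not pass over the 15 arrays. A fit of the 6 gd12 and gd14 arrays alone gave the same log2 change with an SE of 0.40 and called it (adjusted p = 0.0328).

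Promoter windows of these genes, from 250 bases before to 50 bases after the start of transcription, are shown because the genes moved together, and 6 of the 9 genes had a window in the RefSeq table (build GRCm38.p6). The windows hold 28 CG dinucleotides for Dazl, 38 for Ddx4, 24 for Mael and 27 for Sox2, 11 for Zfp42 and 11 and 6 for the 2 listed starts of Pou5f1, against a median of 7 over 32851 windows. Mael's 24 lies above 80.0% of all windows and Ddx4's 38 above 95.0%. Capitals mark the E-box CACGTG, searched on both strands, which is the site of basic helix-loop-helix leucine zipper proteins and itself contains a CG. It stood in the window of Ddx4 (first base at -29) and of Mael (first base at -223), and in 7.15% of all windows. The windows lie at chr17:50293571-50293870 (Dazl, minus strand), chr13:112652261-112652560 (Ddx4, minus strand) and chr1:166238695-166238994 (Mael, minus strand). A match describes the letters and is not a measured binding site.
Dazl: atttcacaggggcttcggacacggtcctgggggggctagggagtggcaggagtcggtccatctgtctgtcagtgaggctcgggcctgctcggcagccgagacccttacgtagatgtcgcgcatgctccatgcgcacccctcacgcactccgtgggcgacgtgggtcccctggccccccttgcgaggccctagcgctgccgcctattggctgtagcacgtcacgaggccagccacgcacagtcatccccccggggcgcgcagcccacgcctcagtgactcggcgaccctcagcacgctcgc
Ddx4: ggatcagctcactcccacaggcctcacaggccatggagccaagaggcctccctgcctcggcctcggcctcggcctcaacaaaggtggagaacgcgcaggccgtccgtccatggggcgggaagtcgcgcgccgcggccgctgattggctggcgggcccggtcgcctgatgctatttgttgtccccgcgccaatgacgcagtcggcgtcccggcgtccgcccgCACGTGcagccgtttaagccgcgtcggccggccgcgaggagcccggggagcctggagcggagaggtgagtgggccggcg
Mael: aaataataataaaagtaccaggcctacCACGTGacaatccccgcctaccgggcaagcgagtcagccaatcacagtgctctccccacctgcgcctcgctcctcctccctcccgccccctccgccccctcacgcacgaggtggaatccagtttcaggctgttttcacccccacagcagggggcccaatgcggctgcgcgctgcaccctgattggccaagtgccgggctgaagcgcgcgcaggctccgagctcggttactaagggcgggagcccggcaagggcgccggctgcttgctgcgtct

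Pou5f1, which encodes the POU factor OCT4, and Sox2 are the core pair of transcription factors of pluripotent cells, and germ cells keep both before they differentiate. Pou5f1 (1417945_at) had signals of 426, 601 and 496 at gd12, 80.5, 89.0 and 77.1 at gd14, 110.2, 30.2 and 48.4 at gd16, 91.7, 57.2 and 35.7 at gd18 and 10.9, 61.4 and 6.67 at pnd2. Only the gd12 arrays stood apart, and the gd14, gd16 and gd18 arrays overlapped. It fell 5.29-fold at gd14 against gd12 (-2.40 ± 0.47, adjusted p = 0.00366). Sox2 (1416967_at) had signals of 995, 1796 and 1048 at gd12, 30.6, 80.5 and 70.5 at gd14, 46.2, 1.68 and 4.76 at gd16, 27.3, 4.24 and 5.54 at gd18 and 0.8, 32.1 and 1.44 at pnd2. It fell 17.1-fold at gd14 against gd12 (-4.10 ± 0.57, adjusted p = 0.000293), and every array from gd14 on was below the array median.

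Sall4, a zinc finger factor of pluripotent and germ cells, and Zfp42 (REX1), a zinc finger marker of the naive pluripotent state, both fell as well. Sall4 (1424152_at) had signals of 2537, 3722 and 2439 at gd12, 103, 116 and 144 at gd14, 8.37, 4.95 and 76.1 at gd16, 7.46, 67.6 and 22.7 at gd18 and 25.1, 48.7 and 67.8 at pnd2. It fell 21.1-fold at gd14 against gd12 (-4.40 ± 0.54, adjusted p = 0.000117). Its 2 probe sets disagreed in size. The second, 1424153_s_at, whose suffix marks probes shared among transcripts, had 155, 82.3 and 57.1 at gd14, against 260.4, 206 and 195 at gd12, and its 2.19-fold difference was not called (-1.13 ± 0.47, adjusted p = 0.165).

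Zfp42 (1418362_at) had signals of 887, 1652 and 980.1 at gd12, 38.5, 52.8 and 44.1 at gd14, 58.2, 40.1 and 6.02 at gd16, 17.6, 2.65 and 9.12 at gd18 and 4.96, 21.9 and 2.39 at pnd2. The gd14 arrays lay within 1.37-fold of each other, all far below gd12. It fell 18.8-fold at gd14 against gd12 (-4.23 ± 0.47, adjusted p = 5.2e-05). Its promoter window (chr8:43306960-43307259, minus strand, GRCm38.p6) is shown because it alone among the 7 windows of the 6 genes held the octamer ATGCAAAT, the binding letters of POU factors such as OCT4. The match was on the reverse strand, with its first base at -186, and it is in capitals as read on the printed strand. The octamer stood in 1.74% of all windows. The Sox motif CATTGTT stood in 1 window, that of the second listed start of Pou5f1, and in 3.78% of all windows.
Zfp42: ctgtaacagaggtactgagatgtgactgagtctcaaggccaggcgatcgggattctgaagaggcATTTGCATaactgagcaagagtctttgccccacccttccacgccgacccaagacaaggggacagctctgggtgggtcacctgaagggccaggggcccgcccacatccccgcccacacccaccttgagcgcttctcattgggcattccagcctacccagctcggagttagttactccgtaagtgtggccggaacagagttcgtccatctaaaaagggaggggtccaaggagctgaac

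Dppa4, a nuclear protein of pluripotent cells, and Dppa5a, an RNA-binding protein of embryonic stem cells and early germ cells, fell in the same interval. Dppa4 (1429597_at) had signals of 1640, 2761 and 1771 at gd12, 270.4, 161 and 357 at gd14, 15.2, 60.6 and 107.8 at gd16, 36.4, 30.2 and 26.7 at gd18 and 9.58, 23.8 and 7.82 at pnd2. It fell 7.58-fold at gd14 against gd12 (-2.92 ± 0.44, adjusted p = 0.00057). Dppa5a (1416552_at) had signals of 10013, 13097 and 13524 at gd12, 378, 398.5 and 645 at gd14, 115, 74.8 and 59.6 at gd16, 89.9, 122 and 73.2 at gd18 and 78.7, 133.5 and 96.7 at pnd2. No gd14 array of either gene overlapped a gd12 or a gd16 array. Dppa5a fell 25.5-fold at gd14 against gd12 (-4.67 ± 0.28, adjusted p = 3.62e-07).

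The genes differed in how much of their gd12 signal was left at gd14. The mean signal at gd14 was 37.6% of that at gd12 for Mael, 16.5% for Ddx4, 16.2% for Pou5f1, 12.8% for Dppa4 and 10.3% for Dazl. It was 4.73% for Sox2, 4.17% for Sall4, 3.88% for Dppa5a and 3.85% for Zfp42. Differences between genes were not tested. A dim signal includes what a probe set reads with no transcript, so the smallest shares depend on that background.

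**Figure D2:**
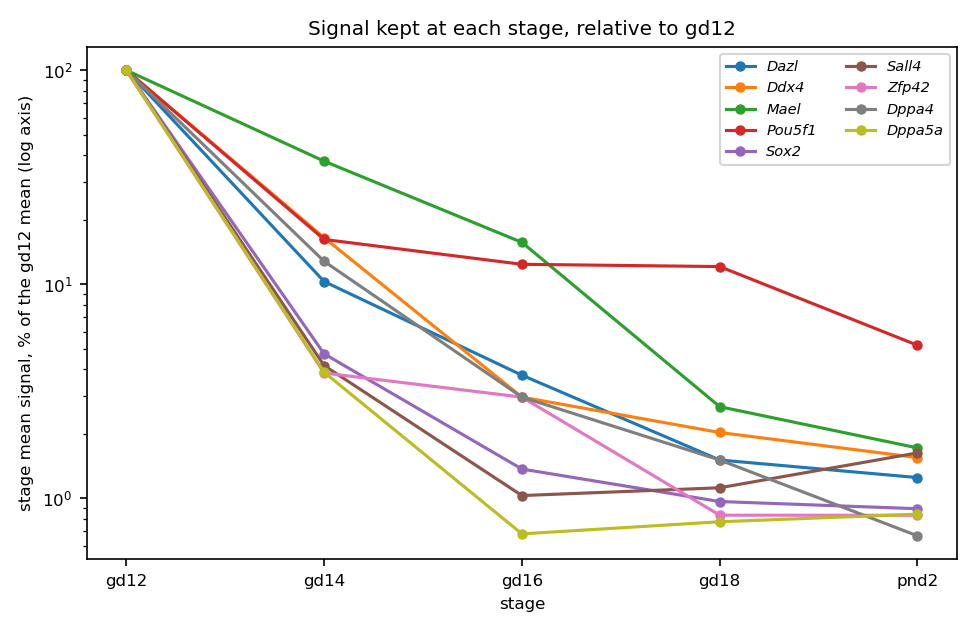
Mean signal of each gene at each stage as a percent of its gd12 mean (log axis, 3 arrays per stage). At gd14 Mael kept 37.6% and Zfp42 3.85%, and at pnd2 every gene was at or below the 5.19% of Pou5f1.

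After gd14 single intervals gave few calls. At gd16 against gd14 only Dppa5a of the 9 passed, with a 4.92-fold fall (-2.30 ± 0.28, adjusted p = 0.00357), and 0.0490% of all genes were called lower. In that comparison 7 of the 9 had an unadjusted p under 0.05, as did 5.97% of all genes, among them Ddx4 (-2.35 ± 0.62, adjusted p = 0.234) and Dppa4 (4.00-fold lower, adjusted p = 0.121), and 5 did not overlap, as did 12.1% of all genes. The log2 change was -1.30 ± 0.51 for Dazl, -1.66 ± 0.71 for Mael, -1.91 ± 0.54 for Sall4, -1.36 ± 0.57 for Sox2 and -0.44 ± 0.47 for Pou5f1, none of them called. Array quality weights called 4 of the 9 (adjusted p = 0.0258 for Ddx4, 0.0088 for Dppa4 and 0.0495 for Sall4, besides Dppa5a), in a fit that called 1.31% of all genes lower. The fit without pnd2 replicate 3 called 2 (0.032 for Dppa4) beside 0.449% of all genes, and the fit without pnd2 replicate 3, gd14 replicate 10 and gd16 replicate 9 called 2 (0.0479 for Sall4) beside 0.0490%. Zfp42 had a log2 change of -0.43 here, and 0.08 without gd16 replicate 9.

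At gd18 against gd16 limma called 0 of the 9, Dazl alone had an unadjusted p under 0.05, as did 7.39% of all genes, and 0.0899% of all genes were called lower. The log2 change was -1.16 for Dazl, -0.85 for Zfp42, -0.74 for Mael, -0.51 for Dppa4, -0.15 for Ddx4, -0.09 for Sox2, 0.04 for Pou5f1, 0.175 for Dppa5a and 0.23 for Sall4. At pnd2 against gd18 limma called 0 of the 9, Pou5f1 alone had an unadjusted p under 0.05, as did 18.9% of all genes, and 0.335% of all genes were called lower. The log2 change was -1.04 for Pou5f1, -0.70 for Dppa4, between -0.20 and -0.04 for Ddx4, Mael, Sox2, Dazl and Zfp42, 0.0987 for Dppa5a and 0.52 for Sall4. Both counts were also 0 without pnd2 replicate 3. From gd16 on all but 3 of the 81 signals of the 9 genes were below the median of their array, and at such levels 3 arrays per stage could not order the stages.

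**Figure D3:**
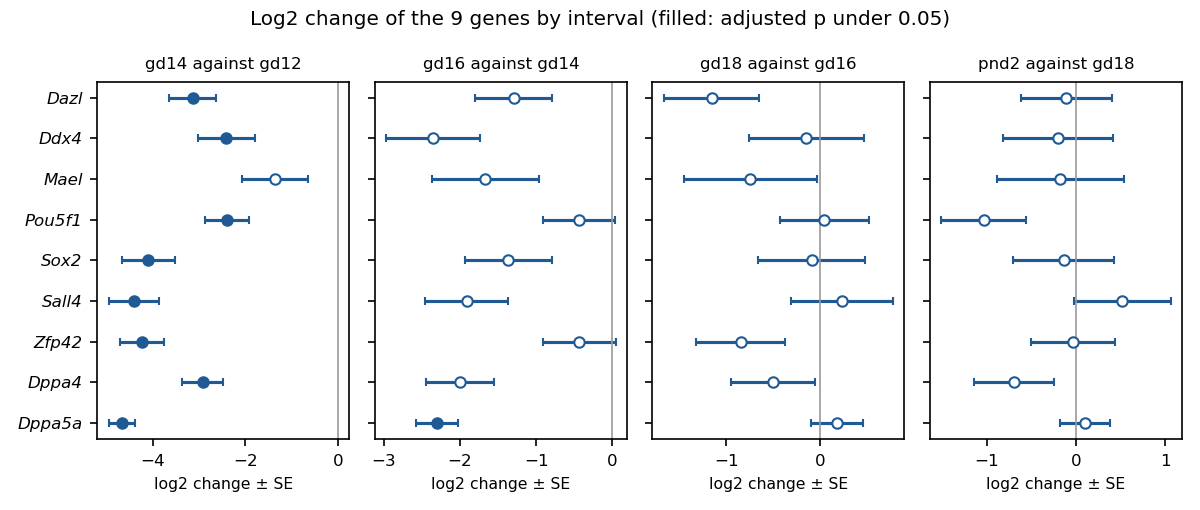
Log2 change with its SE for each gene in the 4 consecutive intervals, later stage over earlier stage, filled where limma's adjusted p was under 0.05. The filled points are 8 of the 9 genes at gd14 against gd12 and Dppa5a at gd16 against gd14.

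A comparison chosen after seeing the data set the mean of the gd16, gd18 and pnd2 arrays against gd14, and it shares the gd14 arrays with the comparison of gd14 against gd12. It called 5 of the 9 lower, where 1.37% of all genes were called lower, and 6 of the 9 without pnd2 replicate 3, where 4.44% were. Dazl was 4.30-fold lower (-2.11 ± 0.42, adjusted p = 0.00921), Ddx4 5.72-fold (-2.52 ± 0.50, adjusted p = 0.00997), Dppa4 5.93-fold (-2.57 ± 0.36, adjusted p = 0.000789) and Dppa5a 4.44-fold (-2.15 ± 0.23, adjusted p = 9.35e-05). Mael was 4.66-fold lower (-2.22 ± 0.58, adjusted p = 0.0453), and this call held in 3 of the 15 fits that left out 1 array. Pou5f1 (-0.76 ± 0.39, adjusted p = 0.382), Zfp42 (-1.01 ± 0.39, adjusted p = 0.203), Sox2 (-1.47 ± 0.46, adjusted p = 0.107) and Sall4 (-1.59 ± 0.44, adjusted p = 0.0622) did not pass. Which genes passed depended on the arrays and the processing. The Dazl call was lost without gd14 replicate 11 (adjusted p = 0.0594) or 12 (0.0697) and with a constant of 1 (0.0627), and the Ddx4 call without gd14 replicate 10 (0.0563) or 12 (0.0855). Sall4 passed without pnd2 replicate 3 (0.0217), gd16 replicate 9 (0.0105) or gd18 replicate 5 (0.0343), with the mean of its probe sets (0.00238) and with array quality weights (0.00683), and its second probe set passed on its own (-1.63 ± 0.39, adjusted p = 0.0336). Sox2 passed without gd16 replicate 7 (0.046) and with array quality weights (0.0296). Only Dppa4 and Dppa5a were called under every alternative run. The difference between genes was not tested.

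Over the whole series, pnd2 against gd12, all 9 genes fell, with and without pnd2 replicate 3, and 13.1% of all genes were called lower, or 17.0% without that array. The folds were 104-fold for Dppa5a, 69.7-fold for Dppa4, 52.0-fold for Dazl, 51.7-fold for Sox2, 47.2-fold for Sall4, 46.8-fold for Zfp42, 34.6-fold for Ddx4, 15.5-fold for Mael and 14.4-fold for Pou5f1. The log2 change ran from -6.70 ± 0.28 for Dppa5a (adjusted p = 1.71e-09) to -3.84 ± 0.47 for Pou5f1 (adjusted p = 3.74e-05). The pnd2 end of these folds lies near the constant of 16, so their size depends on it: for Sox2 the log2 change was -7.87 with a constant of 1 and -4.13 with 64.

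The gd12 arrays differed in the level of the 9 genes. Replicate 14 was the highest of the 3 for 8 of the 9 genes and replicate 13 the lowest for 8 of the 9. Such ranks were not counted over all genes, here or for the gd14 and gd16 arrays below, so they are a description. Dppa5a alone had signals of 10013, 13097 and 13524 on replicates 13, 14 and 15, so it weighed most in their sum. The summed signal of the 9 genes was 18477, 28386 and 24075 on these replicates. The summed signal of markers of Sertoli cells, the supporting cells of the testis, ran in the same order, at 12344, 25382 and 22867. On each gd12 array 12 of the 14 measured markers were at or above the array median. Single markers differed in order. Dhh, with 932, 3161 and 3129, and Aard, with 2422, 6127 and 6023, ran as the Sertoli sum did. Sox9 ran the reverse way, with 1455, 874 and 1044, as did Wt1 with 1944, 1646 and 1719. The sum of the duct markers ran 6912, 3337 and 8308. Amh, the hormone of fetal Sertoli cells, was low throughout, at 5.28, 17.4 and 32.8 at gd12. What part Sertoli or other gonad cells had in the results was not tested.

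Sertoli markers also moved with the 9 genes across stages. At gd14 against gd12, 9 of the 12 markers compared fell and 0 rose (median log2 change -2.69, against 0.03 over all genes), where 5.74% of all genes were called lower. Cbln4, a secreted synaptic organiser expressed in the fetal testis, fell 26.2-fold, Inhbb, an inhibin and activin subunit, 16.1-fold, Dhh, the hedgehog ligand of Sertoli cells, 10.1-fold, and the gonadal factors Nr5a1 and Gata4 fell 9.34- and 7.16-fold. Their summed signal over all 14 markers was 3923 to 4571 at gd14, 2586 to 4060 at gd16, 2471 to 3863 at gd18 and 2042 to 2805 at pnd2. Aard had signals of 579 to 1158 at gd14, against 2422 to 6127 at gd12. Wt1, also a gene of kidney precursors and mesothelium, had 1558 to 1738 at gd14, against 1646 to 1944 at gd12. At pnd2 against gd12, 10 of the 12 Sertoli markers were called lower, where 13.1% of all genes were, and 11 without pnd2 replicate 3, where 17.0% were. Cst9 fell 49.0-fold and Cbln4 47.2-fold in that comparison. Cbln4 and Dmrt1 reached the array median on the 3 gd12 arrays only. They could enter the comparisons only by being high at gd12, so the counts of the Sertoli list are a description.

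On gd16 replicate 9, where 5 of the 9 genes (Dazl, Ddx4, Mael, Sall4 and Dppa4) were the highest of their stage, Cyp17a1, a steroid-making enzyme of Leydig cells, had a signal of 2211, against 23.3 and 8.5 on replicates 7 and 8. The Sertoli sum there was 4060, against 2586 and 2599. Star, which brings cholesterol to the steroid enzymes, had 598 there, against 136 and 140.3. At gd14 the highest Cyp17a1 signal was on replicate 10, at 949 (302 and 218 on replicates 11 and 12), and 0 of the 9 genes were highest on that array. The other 4 genes (Pou5f1, Sox2, Zfp42 and Dppa5a) were the highest of their stage on gd16 replicate 7. Over the Leydig list as a whole 0 of 4 genes were called in any comparison in the fit of all 15 arrays. Without pnd2 replicate 3, 1 of 4 was called higher for the later stages against gd14, where 757 of all 12239 genes were. The Leydig sum ran from 6734 to 8076 at gd12, 5823 to 8483 at gd14 and 5952 to 10613 at gd16. In that list Fdx1, which many tissues express, had 5110 to 7532 over these 3 stages.

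**Figure D4:**
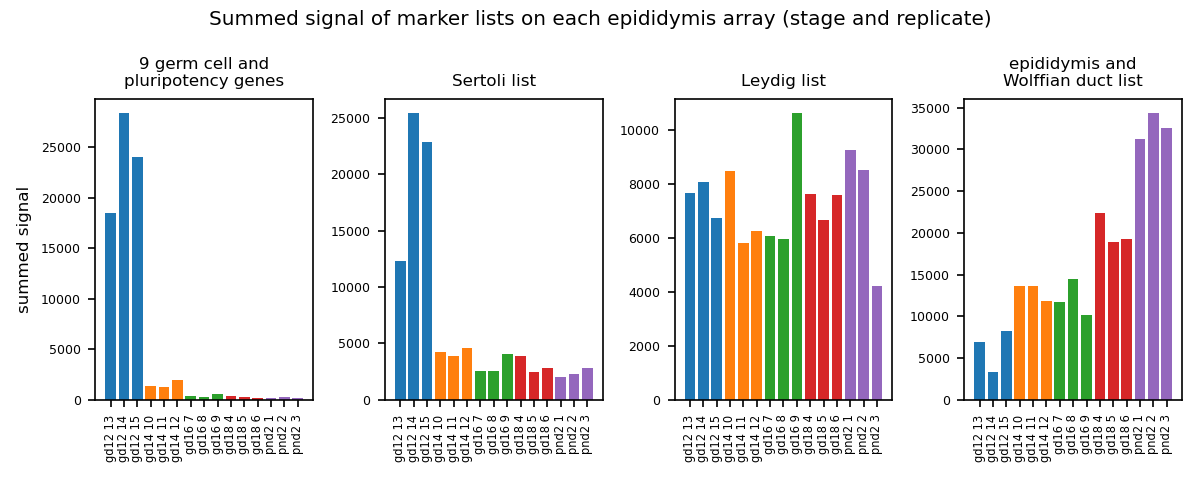
Summed signal on each epididymis array (stage and replicate) of the 9 genes and of marker lists of Sertoli cells, Leydig cells and the duct. The sums of the 9 genes and of the Sertoli list are highest on gd12 replicates 14 and 15, at 28386 and 24075 and at 25382 and 22867, while the duct list is highest at pnd2, at 31200 to 34327.

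Other genes of the same pathways were also lower at gd14, where 5.74% of all genes were called lower against gd12 and 6.71% higher. Of 22 listed genes of the piRNA pathway and germ granules, 18 were on the array and 11 were compared, of which 6 fell and 0 rose at gd14 against gd12 (median log2 change -1.18). Tdrd12, a tudor domain helicase, fell 8.37-fold (-3.06 ± 0.51, adjusted p = 0.00107), Rnf17 6.63-fold, Tex19.1 5.79-fold, Piwil2, a PIWI protein that binds piRNAs, 5.39-fold (-2.43 ± 0.46, adjusted p = 0.00268) and Dnd1, which protects germ cell mRNAs, 3.53-fold. The Dnd1 call was lost without gd12 replicate 14 or 15 or gd14 replicate 11 or 12 (adjusted p up to 0.0862), that of Tex19.1 without gd12 replicate 14 (0.0808) or gd14 replicate 10 (0.0708) and with a constant of 1 (0.0517), and that of Rnf17 with a constant of 1 (0.108). Of 20 further germ cell genes 9 fell and 0 rose (median -1.44), led by Prdm14, a regulator of primordial germ cells, at 16.5-fold (-4.05 ± 0.51, adjusted p = 0.00014), Tfap2c at 7.54-fold, Dppa2 at 6.69-fold, Dppa3 (Stella) at 6.38-fold and Sohlh2 at 5.61-fold. Of 17 meiosis genes on the array 3 passed the filter and 1, Syce2, fell, by 2.17-fold, a call that was lost without gd12 replicate 14 (adjusted p = 0.125) or any gd14 array (up to 0.0856) and with median centring (0.0594). Stra8, which starts meiosis, reached the array median on 0 of the 15 arrays.

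Of 21 further genes of the pluripotency network, 11 fell and 1 rose at gd14 against gd12 (median -0.97). The shares of all genes called were 5.74% lower and 6.71% higher. L1td1, an RNA-binding protein of embryonic stem cells, fell 14.7-fold (-3.88 ± 0.32, adjusted p = 4.04e-06), Nr0b1 (DAX1) 11.2-fold, Utf1 10.8-fold, and Lefty1 and Lefty2, secreted antagonists of Nodal, 7.92- and 7.79-fold. Tbx3, a T-box factor, rose 5.18-fold (2.37 ± 0.62, adjusted p = 0.021), and this call was lost without gd12 replicate 14 (0.109) or gd14 replicate 10 or 11 (0.0612 and 0.082). Nanog, at 1.03 to 30.1 on all arrays from gd14 on, against 115, 136 and 86.5 at gd12, did not pass the filter and was not compared. Like the 9 genes, several of these passed the filter only through gd12, so the counts are a description. The lists were chosen with results of these data known.

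In later intervals the germ cell, piRNA, meiosis and pluripotency lists had 0 calls each at gd16 against gd14, gd18 against gd16 and pnd2 against gd18. At pnd2 against gd12 the piRNA list had 6 of 11 lower, the further germ cell list 11 of 20 lower and 2 higher, and the pluripotency list 11 of 21 lower and 2 higher. Over all genes 13.1% were called lower and 14.4% higher. Without pnd2 replicate 3 the list counts were 6 lower and 1 higher, 12 lower and 2 higher, and 12 lower and 3 higher, beside 17.0% of all genes called lower. For the later stages against gd14 the piRNA list had 0 of 11 called, the further germ cell list 1 of 20 higher (Zbtb16) and the pluripotency list 3 of 21 lower (Lin28a, Sall1 and Trim71), and without pnd2 replicate 3 the counts were 0, 5 lower and 2 higher, and 3 lower and 2 higher. Over all genes 1.37% were called lower in that comparison, and 503 of 12239 genes were called in either direction. Without pnd2 replicate 3, 4.44% of all genes were called lower and 757 of 12239 genes higher. At pnd2 against gd12 the largest falls were Rnf17 at 11.8-fold and Tdrd12 at 9.52-fold in the piRNA list. In the further germ cell list they were Prdm14 at 17.3-fold and Tfap2c at 15.6-fold, and in the pluripotency list Trim71 at 21.3-fold and L1td1 at 17.4-fold. The meiosis list had 1 of 3 lower, Sycp3 at 4.46-fold, and 2 without pnd2 replicate 3. The Sycp3 call was lost without gd12 replicate 14 (adjusted p = 0.0577). The genes of these lists called higher at pnd2 against gd12 were Ifitm3, an interferon-induced membrane protein, by 5.10-fold, Zbtb16 (PLZF) by 4.33-fold, Cdh1 (E-cadherin) by 2.10-fold and Tfcp2l1 by 1.85-fold. The Cdh1 call was lost without pnd2 replicate 3 (log2 change 0.52, adjusted p = 0.0601) and without any one gd12 array (adjusted p up to 0.106), and the Tfcp2l1 call without gd12 replicate 13 (0.0621) or 14 (0.104) or pnd2 replicate 1 (0.0869) or 2 (0.101). Ifitm3 had signals of 3515, 4148 and 8730 at pnd2, against 747, 1278 and 968 at gd12. Duct markers stood the other way from the 9 genes, with 3 of 8 higher at gd14 against gd12 (Adgrg2 at 13.9-fold, Krt18 at 3.21-fold and Krt8 at 2.64-fold, where 6.71% of all genes were called higher). At pnd2 against gd12, 7 of 8 were higher (14.4% of all genes), or 6 of 8 without pnd2 replicate 3. The largest of these rises were Adgrg2 at 96.9-fold and Cdh16 at 5.87-fold. The Cdh16 call was lost in a fit of the 6 arrays compared (adjusted p = 0.164).

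Among the 9 genes the correlation of log2 signals over the 15 arrays lay between 0.758 (Zfp42 and Mael) and 0.974 (Zfp42 and Sox2). The points share the arrays and the step between gd12 and the later stages, which by itself makes such values high. For genes outside the set, some gene names were passed over, so the genes listed need not be the nearest of all. The 10 listed as nearest to the mean of the 9 standardised profiles had Pearson correlations of 0.968 to 0.983. They were Ptprv, Dmrt1, Tafa2, Abtb2, Cse1l, Prokr2, Mmd2, Mak16, AU020206 and Col9a3. Ptprv, the nearest of these, had signals of 316, 323 and 351 at gd14, against 1730, 2235 and 2661 at gd12. For single genes, with the same names passed over, the nearest were Gtf2e1 for Dazl (0.974), Tcfl5 for Ddx4 (0.967), Rpl39l for Mael (0.952), Fbxo28 for Pou5f1 (0.96), Zfp42 for Sox2 (0.974), AU020206 for Sall4 (0.97), Mboat2 for Zfp42 (0.977), Tafa2 for Dppa4 (0.972) and Dppa3 for Dppa5a (0.976).

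In the newborn pool, a single array with no replicate and no test, 7 of the 9 genes were below the array median: Dazl at 57.7, Ddx4 at 11.9, Mael at 23.3, Pou5f1 at 48.8, Zfp42 at 26.8, Dppa4 at 33.1 and Dppa5a at 100.01. Sall4 was at 154. Sox2 was at 707, against 0.8 to 80.5 on the 12 epididymis arrays from gd14 on. Sox2 is also a factor of neural precursors and glia, and the summed signal of 10 nerve and glia markers was 12776 in the pool and between 1660 and 3195 on the epididymis arrays. Of that list, Stmn2 was at 4326 and Erbb3 at 2349 in the pool. On those arrays Sox10, a factor of peripheral glia, had 41.5 to 207.7 at gd12, and the share of nerve cells in the Sox2 signal was not tested.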

How the data were processed

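The values are the deposited intensities (signals, on a linear scale), made by the authors with GCOS, the Affymetrix software, per the submitters' processing notes. The algorithm behind the signal, its version and detection calls were not given in the sources used here. Every array had the same trimmed mean, as scaling by a single factor leaves it. RNA went through 2 rounds of amplification, per the labels' protocols.

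Of 45101 probe sets, 64 were controls, 34945 had 1 symbol in GEO's platform annotation, 932 had several and 9160 were not listed. Values were analysed as log2(signal + 16), so folds of dim genes are understated. Probe sets at or above the array median on at least 3 of 15 arrays were kept (25981, of which 21613 had 1 symbol), and the brightest of a gene's kept probe sets stood for it, which gave 12239 genes. Stages were compared with limma 3.58.1 (lmFit and eBayes with an intensity trend) in R 4.3.3, with 1 mean per stage over the 15 epididymis arrays and Benjamini-Hochberg adjustment over all genes within a comparison. A gene was called at an adjusted p under 0.05. Folds are on the log2(signal + 16) scale, raised to base 2. The procedure was tested on simulated data. Tables and figures were made in Python 3.11.15 with pandas 2.3.3 and matplotlib 3.10.9.

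The 9 genes, the companion lists (22 piRNA and germ granule genes, 28 further germ cell genes, 17 meiosis genes, 27 pluripotency genes and markers of Sertoli, Leydig, nerve and glia, kidney precursor and duct cells) and the tests were chosen with earlier results of these data known. Wt1 stands in the Sertoli and kidney precursor lists and Sall1 in the pluripotency and kidney precursor lists. All 9 genes are named in every comparison. From each list up to 5 called genes that fell and 3 that rose are named at gd14 against gd12, and up to 2 in each direction at pnd2 against gd12. For the later stages against gd14 the called genes of the further germ cell and pluripotency lists are named. For the Sertoli, Leydig, nerve and duct lists the 2 highest over the series are also named. Other genes (Emx2, Amh, Sox9, Cyp17a1, Stra8, Nanog and Sox10) were named after their values were seen. Each result was recomputed with constants of 1 and 64, median centring or quantile normalization, no filter or one on 6 arrays, the mean of probe sets, shared probe sets avoided, every probe set fitted, no trend, array quality weights, a fit of the 6 arrays compared, and without each array or the 3 in doubt (replicate 9 of gd16, replicate 10 of gd14 and replicate 3 of pnd2). The labels give no batch, and the number of arrays limits the precision. Whether the 3 samples of a stage came from separate litters rests on the design text.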

Additional observations from a re-analysis of the deposited data

How the results depend on the processing

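No paired analysis was possible because the arrays are numbered once through the whole series, so that no stages share a replicate number. The count of the 9 genes called at gd14 against gd12 was 8, lay between 7 and 8 with any array left out, and was 4 of the 5 genes left under a filter on 6 arrays. At gd16 against gd14 it was 1, lay between 1 and 2 with any array left out, and was 4 with array quality weights and 2 without the 3 arrays in doubt. For the later stages against gd14 it was 5, lay between 2 and 6 with any array left out, and was 3 with a constant of 1. With array quality weights it was 7, where 7.26% of all genes were called lower, against 1.37% in the main fit. At pnd2 against gd12 it was 9 in every fit that left out an array, and 5 of 5 under the filter on 6 arrays. At gd18 against gd16 and pnd2 against gd18 it was 0 under every alternative run (lowest adjusted p of any gene 0.193 and 0.0655), while the sign of the log2 change turned under at least 1 alternative for 6 and 7 of the 9 genes. In the other 4 comparisons Zfp42 at gd16 against gd14 alone changed sign, with log2 changes of -0.79 to 0.0847 when an array was left out and 0.005 without the 3 arrays in doubt, and the cause was not tested.

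The number of all genes called, the background of these counts, moved more. It was 1524 at gd14 against gd12 and ran from 938 without gd12 replicate 14 to 3648 without pnd2 replicate 3. At gd16 against gd14 it was 13 and ran from 3 to 361, at gd18 against gd16 40 and 6 to 354, and at pnd2 against gd18 73 and 0 to 413. For the later stages it was 503 and ran from 221 to 1967, and at pnd2 against gd12 3362 and 1125 to 4902. After median centring 695 genes were lower and 651 higher at gd14 against gd12, in place of 703 and 821, and 1159 lower and 1982 higher at pnd2 against gd12, in place of 1600 and 1762. All 9 genes stayed lower at gd14 under every alternative in which they were fitted.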

Other observations

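Genes of kidney precursors, tissue that lies beside the gonad and the duct in the embryo, were followed as a further marker list. At gd14 against gd12 limma called 0 of the 6 compared. At pnd2 against gd12 it called 4 of 6 lower, where 13.1% of all genes were called lower. Without pnd2 replicate 3 it called 3 of 6 lower, beside 17.0% of all genes. In the fit of all 15 arrays Eya1 was 5.99-fold (adjusted p = 0.000193, log2 change -2.58 ± 0.38, SE with n = 3 arrays at each stage) and Sall1 4.18-fold lower (-2.06 ± 0.33, adjusted p = 0.000369). The summed signal of its 7 genes was 4328 on gd12 replicate 13, the gd12 array with the lowest sum of the 9 germ cell and pluripotency genes, and 2642 and 2648 on replicates 14 and 15. Eya1, a transcription cofactor of the early kidney, had signals of 1313, 558 and 465 on these 3 arrays.

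Of the nerve and glia list, Stmn2, a neuronal microtubule protein, rose 2.31-fold at gd14 against gd12 (1.21 ± 0.32, adjusted p = 0.0228), with signals of 539, 574 and 364 at gd14, against 191, 209 and 199 at gd12. This call was lost in 5 of the 15 fits that left out 1 array, where the adjusted p reached 0.0971.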
